A study of Mus musculus with 19 samples.

Results

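Carbonic anhydrases are zinc enzymes that interconvert carbon dioxide and water with bicarbonate and a proton, and the lung depends on this reaction to release carbon dioxide from the blood. Family members differ mainly in where they sit in the cell: some are cytosolic, some mitochondrial, and others hold their catalytic domain outside the plasma membrane, as Car14 does. Expression of 9 family members (Car2, Car3, Car4, Car5b, Car8, Car9, Car12, Car13 and Car14) was examined in the lungs of MutaMouse animals given a mixture of polycyclic aromatic hydrocarbons (PAHs) by mouth. The members were taken as every array probe whose RefSeq accession belongs to 1 of these symbols, which gave 11 of 55681 probes and 9 of 20660 gene symbols. Car4 and Car8 each had 2 probes. Car14 was included because its level was already known to be lower in exposed mice of this series, so its differences from vehicle are given as a description, without a test.

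All mice were adult males of the MutaMouse strain (labelled MutaTMMouse), a transgenic mouse that carries a bacterial reporter gene for mutation assays, aged about 12 weeks and housed singly. They were gavaged for 28 days with olive oil alone (D0, 5 mice) or with a mixture of 8 PAHs dissolved in it, at 15 (D1, 4 mice), 30 (D2, 5 mice) or 60 (D3, 4 mice) mg benzo[a]pyrene (BaP) equivalents/kg-bw/day. Lungs were collected 72 h after dosing ended. The comparisons ask how the lung transcriptome responds to each dose of the mixture relative to vehicle. Lung RNA (red dye) was hybridized against reference RNA made from a set of mouse cell lines (green dye), and each value below is the log2 ratio of lung over reference after loess normalization. The 19 arrays came from 18 mice, because D3 mouse 35 was hybridized 2 times and its arrays were averaged. The arrays were scanned on 3 dates, and arrays with the same scan date are called a slide here. Of their spots, 54.5 to 64.7% were well above background in the red channel. Dyes were not swapped, so ratios are open to dye bias, and the column of an array on its slide followed the dose, and the 2 cannot be told apart. D2 mouse 23 carries a number that lies among those of D1, and the methods of the study give the low dose more mice than the middle dose, against the labels. It was kept in the group its label gives, and with it counted in D1 the calls over all tested probes were 284 in place of 328 at D1 and 220 in place of 194 at D2, the Car14 differences from vehicle were -1.47 in place of -1.49 and -1.90 in place of -1.79, and the other members still had 0 calls. The mean log2 ratio of 9 alveolar type 2 cell genes, which mark lung, lay between 5.01 and 5.80 in all mice. Its median was 5.77 in D0, 5.31 in D1, 5.35 in D2 and 5.34 in D3, a difference that was not tested.

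Car14 (NM_011797), a membrane-anchored carbonic anhydrase whose active site faces the outside of the cell, was lower in exposed lungs at every dose. In D0, the log2 ratio was 2.21, 2.24, 2.66, 3.07 and 3.41 in mice 1 to 5. In D1, it was 1.09, 0.76, 1.51 and 1.53 in mice 21, 22, 24 and 25. The highest D1 mouse therefore lay below the lowest vehicle mouse. In D2, it was 0.70, 0.62, 1.22, 0.73 and 1.34 in mice 26, 28, 29, 30 and 23. In D3, it was 0.09, 0.49, 0.76 and 0.92 in mice 31, 32, 34 and 35. No exposed mouse reached the vehicle range at any dose (such separation downward held for 4.19% of all tested probes at D1, 1.6% at D2 and 7.17% at D3), while D1, D2 and D3 overlapped with each other. The group means were 2.72 ± 0.52 (SD, n = 5) in D0, 1.22 ± 0.37 (SD, n = 4) in D1, 0.92 ± 0.33 (SD, n = 5) in D2 and 0.57 ± 0.36 (SD, n = 4) in D3. Relative to vehicle this was 35.5% of the D0 level in D1, 28.9% in D2 and 22.5% in D3. The order of the means was D0, D1, D2 and D3, but the steps between neighbouring doses were small, with a log2 difference of -0.30 from D1 to D2 and of -0.36 from D2 to D3, each below the SD within groups of 0.40. The lung is a mixture of cell types, and fewer cells that express a gene cannot be told apart from less RNA per cell in whole tissue.

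The decline was visible in the unnormalized lung signal. The raw red brightness of the Car14 spot was 788, 941, 793, 946 and 1365 in D0 mice 1 to 5. It was 332 to 419.5 on the D1 arrays, 278.5 to 350 on the D2 arrays and 239 to 299 on the D3 arrays. Every vehicle array was thus brighter than every array of an exposed mouse. The green reference signal of the same spot instead followed the slide, at 164.5 to 192 on slide 1 and 69 to 95 on slides 2 and 3. The green channel was well above background in 13 of 18 mice, whereas the red channel was well above background in all 18. The mean Car14 ratio was lowest on slide 1 and highest on slide 3 within every group.

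**Figure D1:**
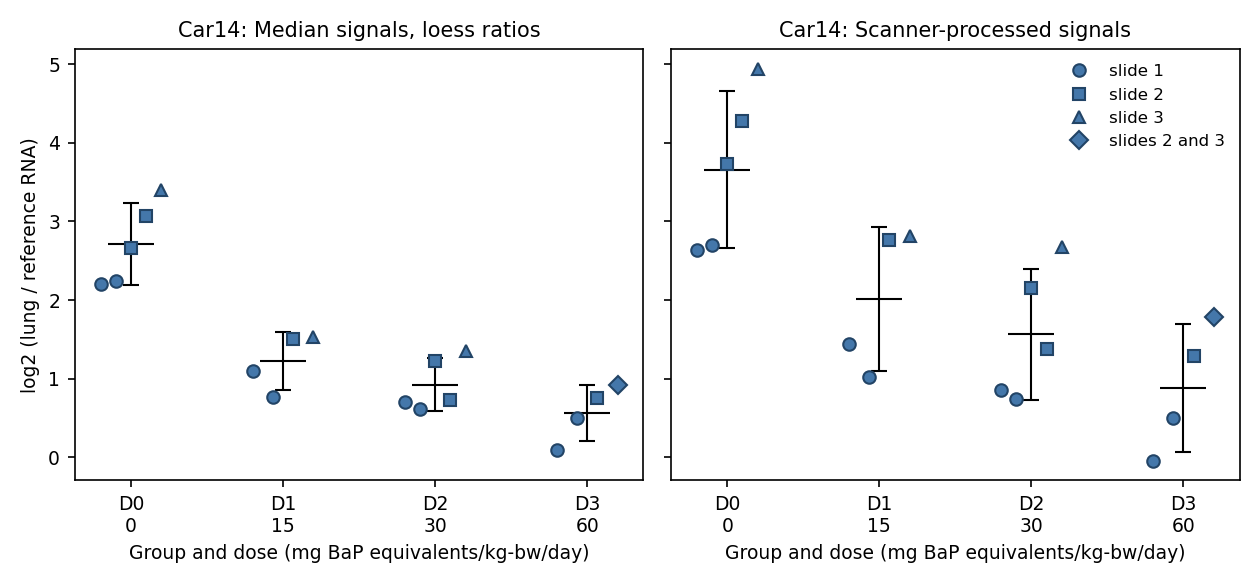
Log2 ratio of Car14 in lung over reference RNA for each of 18 mice (points, shaped by slide) in D0, D1, D2 and D3, from loess ratios (left) and from the scanner software's processed signals (right). Horizontal bars are group means and whiskers are SD, and exposed mice lie at 0.09 to 1.53 against 2.21 to 3.41 in vehicle mice on the left.

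Because each slide held every group, the difference from vehicle could be read within slides, each time from 1 or 2 arrays of the exposed group. For D1, the log2 difference was -1.30 on slide 1, -1.36 on slide 2 and -1.87 on slide 3. For D2, it was -1.56, -1.89 and -2.06 on the same slides. For D3, it was -1.93, -2.02 and -2.50. With slide as a block the differences were -1.46, -1.79 and -2.08, close to -1.49, -1.79 and -2.15 without it. The 2 arrays of D3 mouse 35, which lay on different slides, differed by 0.017. The scanner software's own processed signals, which subtract background and normalize the dyes in another way, gave wider values. On that scale D0 ranged from 2.64 to 4.94, D1 from 1.02 to 2.82, D2 from 0.74 to 2.67 and D3 from -0.05 to 1.78. There, 2 of 4 D1 mice and 1 of 5 D2 mice lay inside the vehicle range, and all 4 D3 mice lay below it. The mean D3 level was 14.6% of the D0 level with processed signals.

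The promoter windows of Car14 and Car9, the 2 members whose D3 mice all lay below every vehicle mouse, are shown for the letters that the receptor for PAHs and the hypoxia factors are known to bind. The aryl hydrocarbon receptor (AHR), which binds PAHs, recognizes the core GCGTG together with its partner ARNT. The hypoxia-inducible factors recognize a core of which ACGTG is 1 form, and both cores share CGTG. RefSeq windows on GRCm38.p6 from 250 bases before to 50 bases after the gene start held 5 of the 9 members (Car4, Car5b, Car9, Car12 and Car14). The Car14 window is chr3:95904636-95904935 on the minus strand and the Car9 window is chr4:43506776-43507075 on the plus strand, each printed 5′ to 3′ along the gene with capitals at a match to ACGTG read on the opposite strand.
Car14: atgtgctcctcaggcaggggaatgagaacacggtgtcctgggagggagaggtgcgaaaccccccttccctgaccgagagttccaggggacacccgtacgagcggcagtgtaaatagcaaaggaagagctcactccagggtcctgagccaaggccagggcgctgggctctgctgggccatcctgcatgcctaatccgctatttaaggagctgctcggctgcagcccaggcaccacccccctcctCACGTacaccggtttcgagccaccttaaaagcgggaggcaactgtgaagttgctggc
Car9: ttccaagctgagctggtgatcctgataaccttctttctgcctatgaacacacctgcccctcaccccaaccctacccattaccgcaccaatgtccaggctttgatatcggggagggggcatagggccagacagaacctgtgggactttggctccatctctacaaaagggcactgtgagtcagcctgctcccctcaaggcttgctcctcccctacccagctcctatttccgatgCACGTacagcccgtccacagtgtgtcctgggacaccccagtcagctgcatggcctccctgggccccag
Each window held 1 match to ACGTG and 0 matches to GCGTG on either strand. Over all 32851 windows of the same length, 19.6% held ACGTG and 32.4% held GCGTG. Among the members, ACGTG was found in the windows of Car4, Car9 and Car14, and GCGTG only in that of Car5b, with 5 matches. A match describes letters in this window and not a bound site.

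Of the other 8 members, none passed the test in any comparison. With limma over all groups, 0 of their 10 probes combined an adjusted p (Benjamini-Hochberg) up to 0.05 with a change of 1.5-fold or more at D1, D2 or D3, between neighbouring doses or as a linear trend over dose. Over all 30968 tested probes the same rule called 1.06% for D1, 0.626% for D2 and 2.43% for D3 against vehicle, 0% between D1 and D2, 0.107% between D2 and D3, and 1.46% for the trend. At an unadjusted p below 0.05, 1 of the 10 probes passed at each dose, against 19.8, 14.7 and 26.2% of all tested probes at D1, D2 and D3. The median log2 difference of the 10 probes was -0.02 at D1, -0.08 at D2 and -0.07 at D3, against 0.01, -0.00 and -0.00 over all tested probes. The count of 0 held in each alternative setting that was run.

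**Figure D2:**
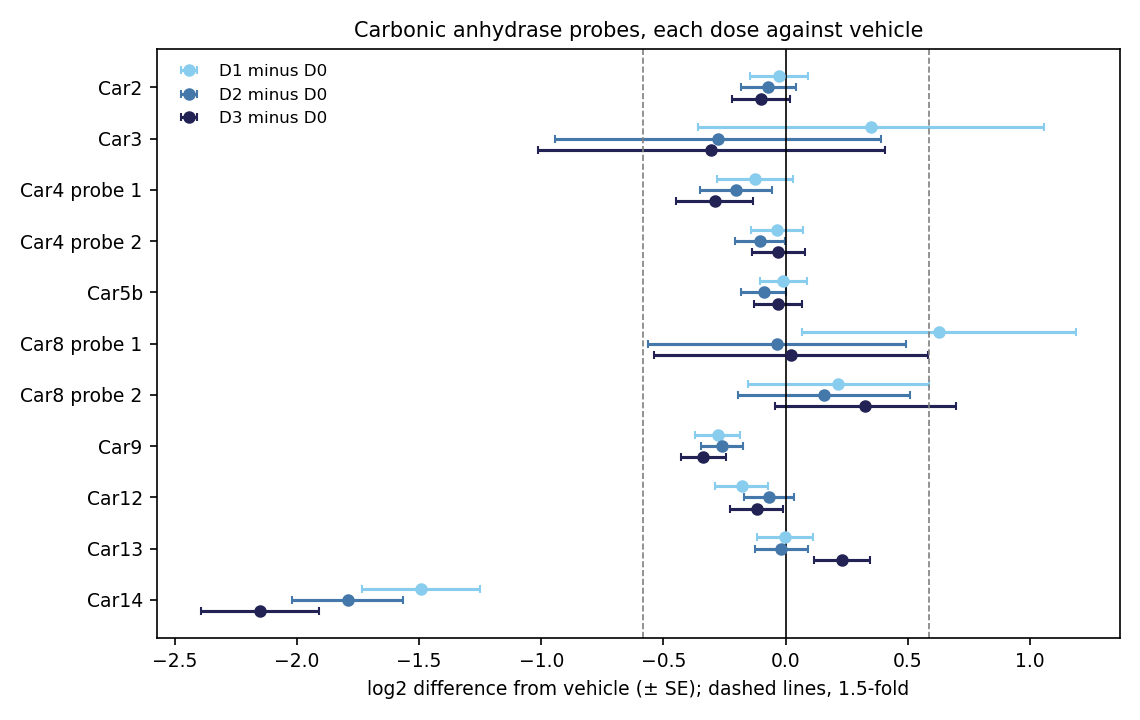
Log2 difference from vehicle of the 11 carbonic anhydrase probes at D1, D2 and D3 (points, from the limma fit over 18 mice), with standard errors as whiskers and dashed lines at 1.5-fold. Car14 lies at -1.49, -1.79 and -2.15, while Car3 and Car8 have wide errors and the remaining probes lie within 0.34 of 0.

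Among the members with an extracellular active site, Car9 (NM_139305), a transmembrane enzyme known as a target of the hypoxia-inducible factors, was called at no dose, and its adjusted p was under 0.05 at D3 alone. In D0, the log2 ratio was -1.88, -2.05, -1.99, -1.99 and -1.79 in mice 1 to 5. In D3, it was -2.24, -2.10, -2.43 and -2.33 in mice 31, 32, 34 and 35. All 4 D3 mice lay below every vehicle mouse, as did all 5 D2 mice (-2.36 to -2.08) and 3 of 4 D1 mice (-2.41 to -1.99). The same separation was found for 7.17% of all tested probes at D3 and 1.6% at D2. The D3 difference was -0.34 ± 0.09 (SE), 79.2% of the D0 level, with an adjusted p of 0.0228 from limma, which falls short of the 1.5-fold threshold. By adjusted p alone 12.4% of all tested probes passed at D3. The D1 and D2 differences were -0.28 and -0.26, with adjusted p of 0.0933 and 0.144 from limma. Over the alternatives that kept all mice they ranged from -0.36 to -0.00 at D1 (adjusted p of 0.0201 to 0.999 from limma) and from -0.31 to -0.05 at D2 (adjusted p of 0.0441 to 0.969 from limma), in both cases nearest 0 with median centring, and the lowest adjusted p was with slide as a block. Without D1 mouse 25 the D1 difference was -0.35 with an adjusted p of 0.0468 from limma. The D3 difference was -0.21, -0.46 and -0.41 on slides 1, 2 and 3. Slide 3 held 1 D3 array, from mouse 35, which also lay on slide 2. With each array centred on its median in place of loess, the D3 difference was -0.17 with an adjusted p of 0.88 from limma, and the adjusted p passed 0.05 without D0 mouse 5, D3 mouse 34 or D3 mouse 35 (0.055, 0.077 and 0.068).

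Car4 (NM_007607), the enzyme held by a lipid anchor on the luminal face of lung capillaries, was measured by 2 probes, neither of which passed the test. The first probe gave 1.34 to 1.97 in D0, 1.18 to 1.97 in D1, 1.23 to 1.63 in D2 and 1.06 to 1.51 in D3. Its D3 difference was -0.29 ± 0.16 (SE), with an adjusted p of 0.253 from limma. The second probe gave 3.84 to 4.11 in D0 and 3.80 to 4.27 in D3, a difference of -0.03 ± 0.11 (SE) with an adjusted p of 0.899 from limma. Over the 18 mice the 2 probes correlated with a Pearson r of 0.475. D3 mouse 34 was the highest of its group with both probes. The 95% interval of the D3 difference was -0.62 to 0.04 for the first probe and -0.26 to 0.20 for the second. With processed signals the D3 differences were -0.31 and -0.23.

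Car12 (NM_178396), another transmembrane enzyme, did not pass the test at any dose. Its log2 ratio ranged from -2.50 to -2.05 in D0, from -2.67 to -2.43 in D1, from -2.56 to -2.14 in D2 and from -2.66 to -2.28 in D3. The differences from vehicle were -0.18, -0.07 and -0.12, with adjusted p of 0.384, 0.836 and 0.538 from limma. Ratios of Car12 were higher on slide 1 than on slide 2 in every group, as the plot of single mice shows.

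The cytosolic members did not pass the test either. Car2 (NM_009801), the fast cytosolic form found in red cells and many epithelia, ranged from 4.35 to 4.55 in D0, from 4.16 to 4.77 in D1, from 4.22 to 4.49 in D2 and from 4.10 to 4.67 in D3. Its SD was 0.27 in D1, 0.12 in D2 and 0.25 in D3 against 0.08 in D0, a difference in spread that was not tested. The D3 difference was -0.10 ± 0.12 (SE), adjusted p = 0.639 from limma. Car13 (NM_024495), a cytosolic form of broad expression, was -1.08, -1.06, -1.19, -1.45 and -1.15 in D0 mice 1 to 5 and -0.96, -0.84, -1.16 and -0.86 in D3 mice 31, 32, 34 and 35. Thus 3 of 4 D3 mice lay above every vehicle mouse and mouse 34 did not. The D3 difference was 0.23 ± 0.11 (SE), adjusted p = 0.21 from limma. With processed signals the difference was 0.50 and all 4 D3 mice lay above the vehicle range, with an adjusted p of 0.0492 from limma, still under 1.5-fold. On that scale 7.59% of all tested probes had every D3 mouse above every vehicle mouse and 12.4% passed by adjusted p alone. With loess ratios D1 and D2 differed from vehicle by -0.00 and -0.02, and with processed signals D1 differed by 0.13 and D2 by -0.02. Car13, Car1, Car3 and Car2 are consecutive protein-coding genes on chromosome 3 in the RefSeq annotation, and Car14 lies on the same chromosome with 530 protein-coding genes in between. None of these neighbours passed the test at any dose.

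**Figure D3:**
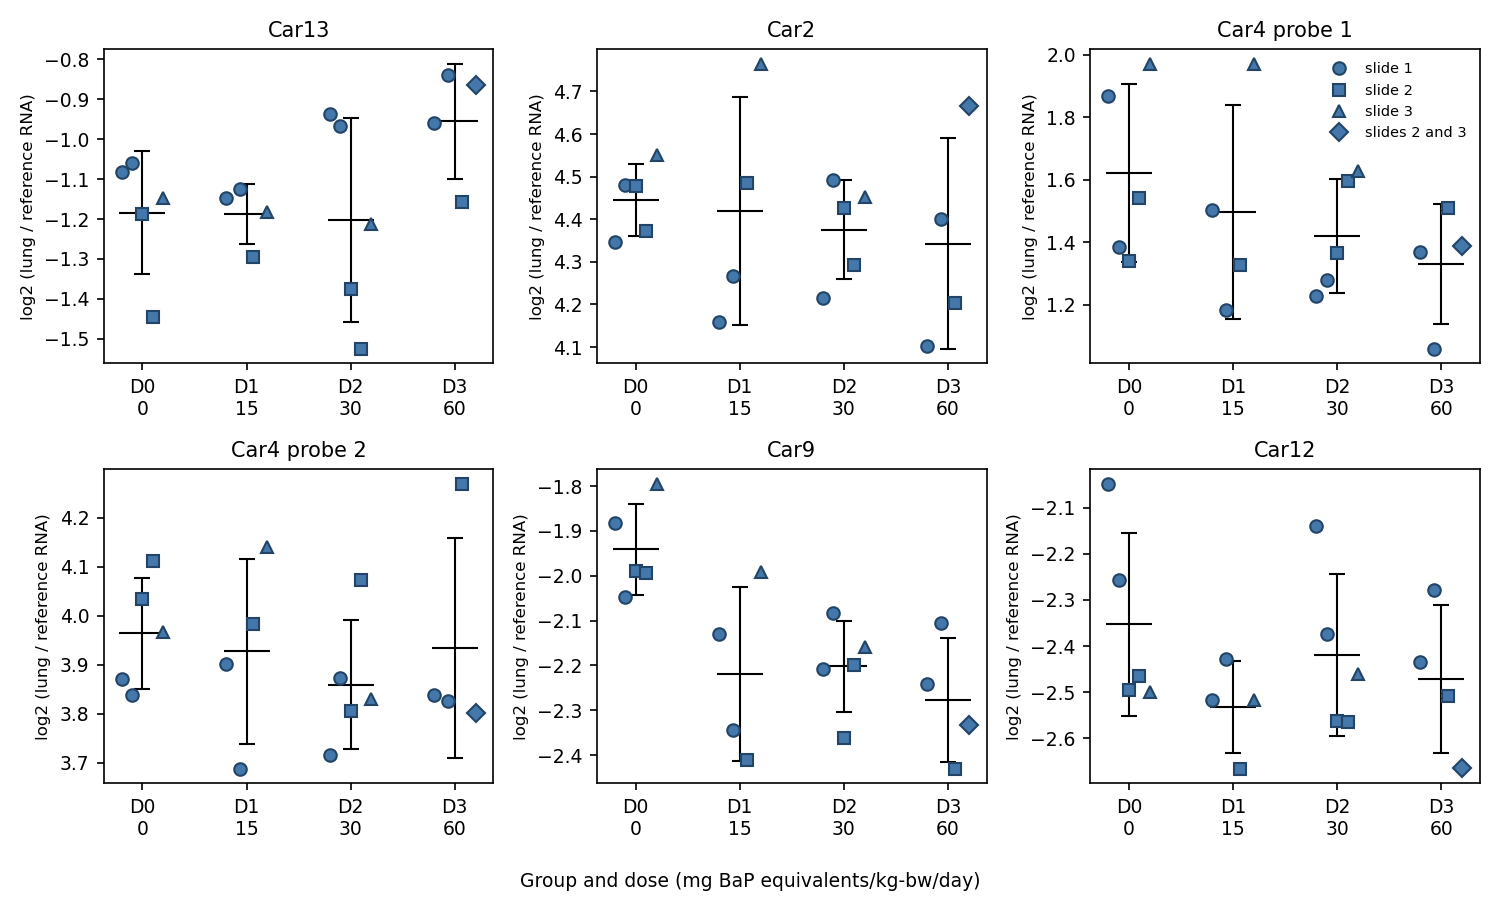
Log2 ratio of lung over reference RNA for each of 18 mice (points, shaped by slide) by group for Car13, Car2, both Car4 probes, Car9 and Car12, with group means (bars) and SD (whiskers), each panel on its own axis. Car9 is the only panel in which all D3 mice lie below all D0 mice.

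Car3 (NM_007606), a slow cytosolic form abundant in adipocytes and skeletal muscle, differed far more between mice than between doses. In D0, its log2 ratio was 3.83, 3.31, 2.75, 3.00 and 1.47 in mice 1 to 5. In D1, it was 3.07, 5.09, 1.96 and 2.77 in mice 21, 22, 24 and 25. In D2, it was 3.68, 1.22, 2.27, 1.94 and 3.88 in mice 26, 28, 29, 30 and 23. In D3, it was 3.30, 1.62, 4.40 and 0.96 in mice 31, 32, 34 and 35. Every group overlapped every other, and the SD was 0.88 to 1.57 within groups. The differences from vehicle were 0.35, -0.28 and -0.30 with adjusted p of 0.839, 0.905 and 0.833 from limma, and the 95% interval at D3 was -1.79 to 1.18.

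Markers of fat moved with Car3 across the mice. The mean log2 ratio of 9 adipocyte genes ranged from 1.16 in D3 mouse 35 to 3.69 in D1 mouse 22, the mice with the lowest and the highest Car3. After subtraction of the group means, Car3 correlated with this mean over 18 mice with a Pearson r of 0.97 and a Spearman rho of 0.965, each with a permutation p of 1e-05, the smallest that 100000 permutations within groups can give. Adjusted over the 99 relations of the 9 members with 11 marker lists, each p was 0.00099. Without the 2 mice farthest from the median (D1 mouse 22 and D3 mouse 34) r was 0.969, with slide means also subtracted it was 0.969, and it was 0.965 among the 8 mice of slide 1 and 0.941 among 6 mice of slide 2. Single adipocyte genes gave a similar picture. With group means subtracted, r was 0.97 for Retn (resistin), 0.958 for Adipoq (adiponectin), 0.957 for Cfd (adipsin) and 0.915 for Plin1 (perilipin, the coat of fat droplets). The ratio of Adipoq alone ranged from 0.11 to 3.70. Skeletal muscle genes, of which 5 were measured, also correlated with Car3 (r = 0.701, rho = 0.787, permutation p of 0.00016 and 0.00035, adjusted p of 0.00792 and 0.0139, n = 18 mice), and r was 0.726 without the 2 mice farthest from the median. Cardiac muscle genes fell into separate clusters of mice, with means of -0.05 to -0.02 in 3 mice and 1.38 to 4.13 in the rest. Over all 18 mice Car3 passed with this list too (r = 0.784, rho = 0.796, adjusted permutation p of 0.024 and 0.0139). Such clusters can carry a correlation, so it was also read within the higher cluster. In those 15 mice, a choice made after the values were seen, Car3 correlated with the mean of the cardiac genes (r = 0.726, rho = 0.761, permutation p of 0.0158 and 0.00951, not adjusted), and r was 0.785 without the 2 mice farthest from the median. None of 11 adipocyte probes rose at D3, and 1 of the 2 for Cidec, a fat droplet protein, fell by 0.70 on the log2 scale (adjusted p = 0.033, limma), with 1.23% of all tested probes called lower, a call lost with processed signals, median centring, normexp and loess, and without D0 mouse 1, 3, 4 or 5 or D3 mouse 32 or 35. The other lists did not pass the adjusted permutation test with Car3, among them smooth muscle (r = 0.632, rho = 0.668, adjusted permutation p of 0.0748 and 0.0654, n = 18 mice), airway epithelium (r = 0.61, rho = 0.622, adjusted permutation p of 0.0989 and 0.109) and general endothelium (r = -0.535, rho = -0.503, adjusted permutation p of 0.163 and 0.173). With slide means also subtracted r was 0.759, 0.735 and -0.763 for these lists, against 0.675 for skeletal muscle. For the alveolar type 2 list, which did not pass either, it changed from -0.495 to -0.7. The part of attached fat or muscle in the Car3 values was not tested.

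**Figure D4:**
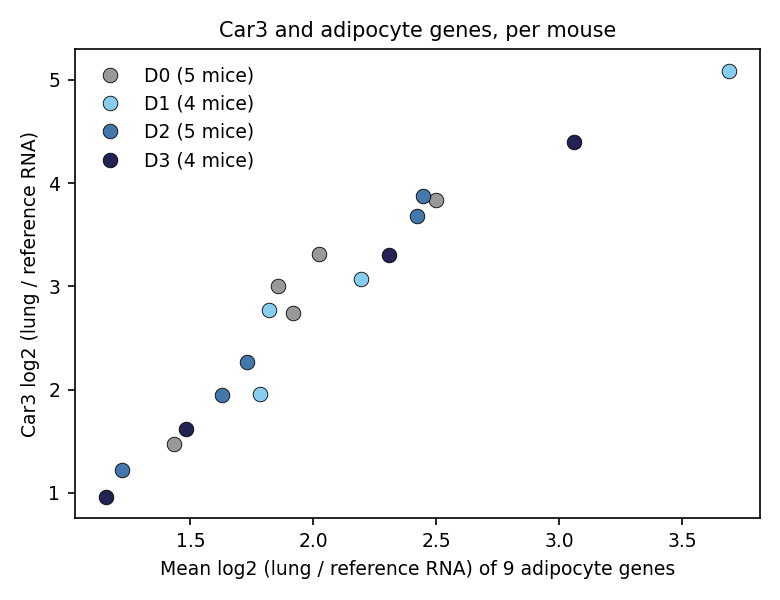
Log2 ratio of Car3 against the mean log2 ratio of 9 adipocyte genes in lung over reference RNA, 1 point per mouse (n = 18), shaded by group. Points of all 4 groups lie along 1 line, from 0.96 for Car3 in D3 mouse 35 to 5.09 in D1 mouse 22.

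Car12 and Car13 also passed the adjusted permutation test with some marker lists. These correlations were smaller in size with slide means subtracted too, where no permutation test was run. Car12 correlated with the alveolar type 2 list at r = -0.75 (rho = -0.769, adjusted permutation p of 0.024 and 0.0202, n = 18 mice) with group means subtracted, and at -0.00 with slide means subtracted too. Its r with the general endothelium list changed from -0.673 to 0.048 and with the erythroid list from -0.689 to -0.119. With the general capillary list Car12 passed by rho alone (rho = -0.668, adjusted permutation p of 0.0442, and 0.116 for r = -0.504, n = 18 mice), and its r was 0.116 with slide means subtracted. Car13 with the Car4-positive capillary list changed from -0.67 to -0.113. With the general endothelium list its r changed from -0.654 to 0.18, and that relation had passed by r alone (adjusted permutation p of 0.0354, and 0.0865 for rho, n = 18 mice). Car14 passed with none of the 11 lists, its highest r being 0.714 with the alveolar type 2 list (rho = 0.653, adjusted permutation p of 0.0614 and 0.0865, n = 18 mice), and 0.418 with slide means subtracted.

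Car5b (NM_181315), the mitochondrial member on the X chromosome, stayed in a narrow range. Its log2 ratio ranged from -0.45 to -0.19 in D0, from -0.44 to -0.12 in D1, from -0.52 to -0.28 in D2 and from -0.58 to -0.17 in D3. The differences from vehicle were -0.01, -0.09 and -0.03, with adjusted p of 0.973, 0.721 and 0.88 from limma.

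Car8 (NM_007592), a family member that lacks catalytic activity and is known as a partner of the inositol trisphosphate receptor, was read by 2 probes that parted in a few mice. With the first probe, the log2 ratio was -0.01 in D0 mouse 3, 0.18 in D2 mouse 30 and 0.29 in D3 mouse 32, and 1.52 to 2.95 in the other 15 mice. In those 3 mice the first probe was not well above background in the red channel, with raw brightness of 76, 89.5 and 89 against 254.5 to 649 on the other arrays. The second probe was well above background in all 18 mice and gave 0.96, 1.47 and 0.89 in the same 3 mice. D1 mouse 22 went the other way, with 2.47 from the first probe and 1.08 from the second. On that array the green reference signal of the second probe was 146, against 40 to 55 on the other 18 arrays. Over 18 mice the 2 probes correlated with a Pearson r of 0.747.

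**Figure D5:**
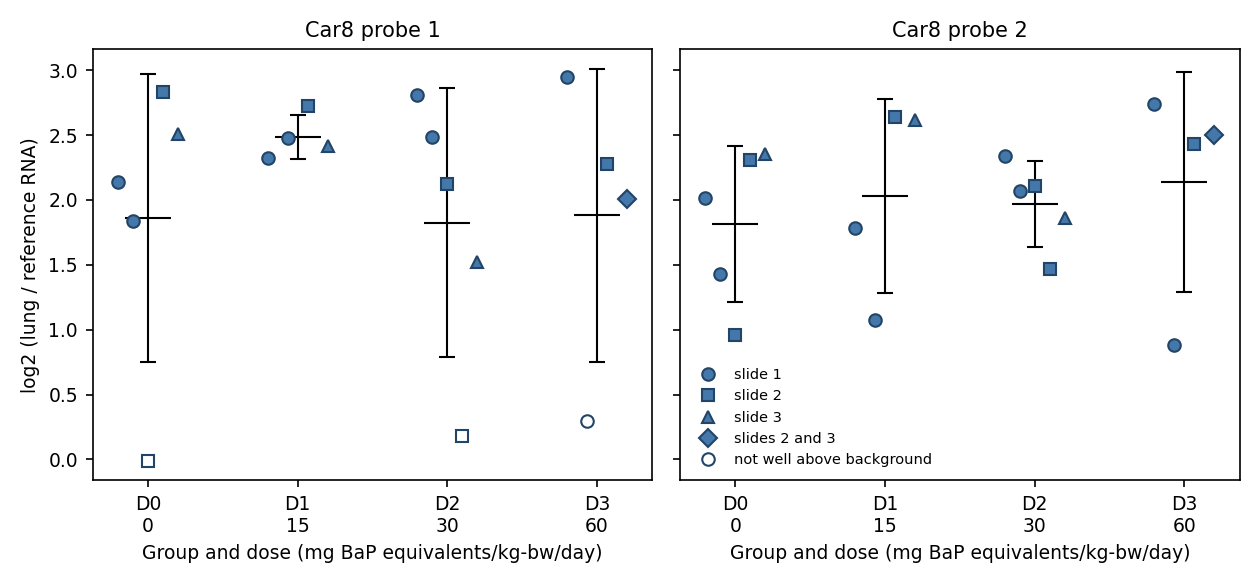
Log2 ratio of Car8 in lung over reference RNA for each of 18 mice (points, shaped by slide) by group for the first and the second probe, with group means (bars) and SD (whiskers). Open points mark the 3 mice in which the first probe was not well above background, at -0.01, 0.18 and 0.29.

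Neither Car8 probe differed between dose groups by the test. With the first probe the differences from vehicle were 0.63, -0.04 and 0.02, with adjusted p of 0.59, 0.988 and 0.987 from limma. Without the 3 dim mice, a choice made after the values were seen, they were 0.16, -0.09 and 0.08. With the second probe they were 0.22, 0.16 and 0.33, with adjusted p of 0.807, 0.897 and 0.634 from limma. The 95% interval at D3 was -1.15 to 1.20 for the first probe and -0.45 to 1.10 for the second, so changes of 1.5-fold in either direction lay within the first interval and a rise of that size within the second. The green channel was well above background in 0 of 18 mice for the first probe and 1 of 18 for the second.

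The other carbonic anhydrases on the array were read for comparison. Of 7 further family genes, Car1, Car7, Car11 and Car15 were tested, and none of their 4 tested probes passed at any dose, with D3 differences of 0.03, -0.05, 0.08 and -0.12. Car5a, Car6, Car10 and the second probe of Car1 did not reach the level required for testing, which was a red signal well above background in 4 mice of 1 group. Transporters that carry the products of the reaction (Slc4, Slc9, Slc16 and Slc26 families with pumps, channels and partners) were read next. None of 37 tested probes for 28 such genes passed at D1, D2 or D3, and their median log2 difference at D3 was 0.01. With each mouse left out in turn, 1 probe was called higher at D3 in 1 of 18 runs. Slc4a1, the anion exchanger of red cells, had the largest D3 difference at 0.74 with an adjusted p of 0.103 from limma.

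Genes known as targets of the hypoxia-inducible factors, to which Car9 belongs, were read as a list. None of 26 probes for 17 genes passed at D3, with a median log2 difference of -0.02. With each mouse left out in turn, 1 probe was called lower at D3 in 1 of 18 runs. At D2, 1 of 26 passed, Adm (adrenomedullin, a vasodilator peptide), which fell by 0.77 on the log2 scale with an adjusted p of 0.00887 from limma, where 0.191% of all tested probes were called lower. By adjusted p alone 2 of 26 probes passed at D1, 3 at D2 and 4 at D3, against 4.74, 2.09 and 12.4% of all tested probes. At D1 these were 1 of the 2 probes of Pfkfb3, a regulator of glycolysis, at 0.40 and Ndrg1, a stress-response gene, at 0.47 (adjusted p of 0.0259 and 0.028 from limma). At D2 they were the same probes at 0.57 and 0.49 (adjusted p of 0.00254 and 0.0245 from limma), besides Adm. At D3, where all were short of 1.5-fold, they were Adm at -0.50 and 1 of the 3 probes of Ldha, a lactate dehydrogenase subunit, at -0.39 (adjusted p of 0.0419 and 0.00715 from limma), and the same probes of Pfkfb3 at 0.43 and Ndrg1 at 0.45 (adjusted p of 0.00787 and 0.0173 from limma). The mean log2 ratio of the list in single mice overlapped between vehicle and top dose, from -1.46 to -1.42 in D0 and from -1.52 to -1.38 in D3.

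Capillary genes were read because Car4 marks 1 kind of lung capillary cell. In the list of genes known from Car4-positive capillaries, 3 of 13 probes fell at D3 and 0 rose, with 1.23% of all tested probes called lower. They were both probes of Ednrb (endothelin receptor B), at -0.90 and -0.80 with adjusted p of 0.00297 and 0.000212 from limma, and Fibin, at -0.77 with adjusted p = 0.00541 from limma. Prx (periaxin) was at 0.57 with an adjusted p of 0.00744 from limma, short of 1.5-fold, and was called higher in 3 of 11 other settings and without 4 of the 18 mice, each left out in turn (D0 mouse 2 or 5, D3 mouse 31 or 32). Kdr, Tbx2 and the remaining genes did not pass. In the list for general capillaries, 3 of 15 probes rose and 1 fell, with 1.21% of all tested probes called higher. Gpihbp1, which carries lipoprotein lipase across the capillary wall, fell by 2.45 on the log2 scale (adjusted p = 2.1e-06, limma), while both probes of Sema3c, a secreted guidance factor, rose by 1.41 and 0.92 and 1 of the 2 probes of Hpgd, a prostaglandin-degrading enzyme, rose by 0.71. The other Hpgd probe was at 0.56 with an adjusted p of 0.238 from limma. In the list shared by all endothelium, Pecam1 and Emcn rose by 0.66 and 0.73 and the other 8 probes did not pass. The mean log2 ratio of the Car4-positive list was 3.39 to 3.56 in D0 and 3.20 to 3.56 in D3. With processed signals 1 of the 3 lower probes of that list and 0 of the 2 higher endothelial probes were called, and with median centring 0 of either and 0 of the 3 higher probes for general capillaries.

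The remaining lists held few or no calls apart from those for the response to PAHs. At D3, 1.21% of all tested probes were called higher and 1.23% lower. Of 14 alveolar type 1 cell probes, both for Igfbp2, a binding protein of insulin-like growth factors, rose at D3 by 0.91 and 0.94 (adjusted p of 0.0107 and 0.0168, limma) and 1, for Cav1 (caveolin, the coat protein of caveolae), fell by 0.64 on the log2 scale (adjusted p = 0.00209, limma). All 3 calls were lost with median centring, that of Cav1 without D0 mouse 3 or D3 mouse 31, and those of Igfbp2 without D3 mouse 35. None of the 20 cardiac muscle, 6 skeletal muscle, 7 erythroid, 11 alveolar type 2, 9 airway epithelium and 7 smooth muscle probes passed at D3, although 1 erythroid probe was called higher without D3 mouse 31, and 1 smooth muscle probe lower without D0 mouse 2, D3 mouse 31 or D3 mouse 34. Of 9 probes for AHR targets, 4 rose at D3, among them Cyp1a1 (3.61), Cyp1b1 (2.68), both enzymes that oxidize PAHs, and Ahrr, the AHR repressor (1.84). Of 15 probes for p53 targets, 13 rose at D3, among them Gdf15 (3.69), both probes of Cdkn1a, a cell cycle inhibitor (3.12 and 3.08), and Ccng1 (2.19), with adjusted p up to 0.000839 from limma for these genes. Over the alternatives that kept all mice, 3 to 4 AHR target probes and 9 to 14 p53 target probes were called higher.

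The genes whose pattern was most like that of Car14 over the 18 mice were Efnb1 (r = 0.949), Grrp1 (0.920), Banp (0.914), Btbd9 (0.910) and Rem1 (0.903), out of 19197 tested probes with a symbol. The 99th percentile over these probes was 0.757. The most opposite were Ehd1 (-0.918), Btbd3 (-0.916) and Ddah1 (-0.914). Since Car14 differed between the groups, the group means were also subtracted. The closest genes were then Ckmt1 (0.902), F7 (0.898), Grm2 (0.898), Eqtn (0.895) and Hap1 (0.891), with a 99th percentile of 0.738. None of the 13 was chosen by both measures. With slide means subtracted as well, r was -0.19 to 0.52 for the first 5 and 0.489 to 0.807 for the last 5, where F7, a coagulation factor, had the highest value. For Ehd1, Btbd3 and Ddah1 it was then -0.334, -0.088 and -0.49. These values are descriptions of 18 mice that share 3 slides and 4 groups.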

How the data were processed

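Lung RNA of 18 mice was measured on 19 two-colour Agilent mouse arrays, imaged and read with Agilent Feature Extraction 11.0.1.1 per the file headers. Scanner files as deposited give the intensity of each spot (median signals and the software's processed signals), and the authors deposited a table of normalized log2 ratios, used here as an alternative. The study's methods normalized median signals by LOWESS without background subtraction and tested with MAANOVA. Here the same signals were normalized by loess (span 0.3), control and outlier spots were left out, repeat spots and the 2 arrays of mouse 35 were averaged, and all groups were fitted together with limma 3.58.1 in R 4.3.3. A probe was tested when red was well above background in at least 4 mice of 1 group (30968 probes), and called where its adjusted p (Benjamini-Hochberg) was up to 0.05 and its change 1.5-fold or more. Only RefSeq-type identifiers were named: 21465 of 22765 matched a symbol. The number of arrays limits the precision. Correlations were permuted within groups in Python. The fit and the permutation test were tested on simulated data. Members, lists, lead probes and tests were chosen with earlier results of these data known. Named genes were all members with every probe, up to 3 called genes per direction in each list, and the genes most like Car14. In the text, Adm, Ldha, Pfkfb3, Prx, Kdr, Tbx2, Slc4a1 and Ndrg1, and the single adipocyte genes other than Cidec, were named after their values were seen. Alternatives covered other normalizations, filters, slide as a block, the placing of mouse 23, single arrays of mouse 35 and leaving out each mouse.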

Additional observations from a re-analysis of the deposited data

Results flagged for a closer look

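Of 44 sets of values (11 probes in 4 groups), 2 had a mouse set apart from its group by a gap that chance gives in about 1 of 20 sets. With the second Car4 probe, D3 mouse 34 read 4.27 while the next mouse of the group read 3.84. With the second Car8 probe, D3 mouse 32 read 0.89 while the next mouse read 2.43, and the first Car8 probe was not well above background in the same mouse.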

How the results depend on the processing

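No paired analysis was possible because the groups share no mouse numbers. None of the 10 probes other than Car14 was called in any comparison under any alternative. The Car14 difference at D3 became -2.78 with processed signals. Over all settings that kept all mice, processed signals included, the Car14 differences ranged from -1.65 to -1.29 for D1, from -2.10 to -1.62 for D2 and from -2.78 to -2.06 for D3. Leaving out single mice gave values between -1.62 and -1.32 for D1, between -1.92 and -1.62 for D2, and between -2.28 and -1.98 for D3. Over the settings that kept all mice, the Car9 difference at D3 ranged from -0.44 to -0.17, with adjusted p of 0.00579 to 0.88 from limma. Its adjusted p stayed under 0.05 in 10 of these 11 settings, and median centring gave -0.17 and 0.88. The difference ranged from -0.39 to -0.29 when single mice were left out, with adjusted p of 0.0156 to 0.077 from limma. The cause of these changes was not tested. Over all tested probes at D3, 754 were called, against 1368 with processed signals and 98 with median centring, which shifted the median log2 difference from -0.00 to 0.06. At D1 the counts were 328, 639 and 12, and at D2 194, 348 and 18. Dim red or green signals limit Car8, whose reference signal was near background, and Car14, whose reference signal was well above background in 13 of 18 mice. Sign changes of uncalled values near 0 were not counted as reversals.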
